A study of Mus musculus with 123 samples.

Results

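The regions described here carried a peak of histone H3 lysine 4 methylation in the ES2 peak list and in neither of the other lists, ES1 and ES3. They were chosen by the peak calls themselves. Peaks on chromosomes 1 to 19 of the mm9 build that touched or overlapped, within or between the 3 lists, were joined to form union regions. A member is a union region with an ES2 peak and no ES1 or ES3 peak. This gave 3896 members among 30974 union regions, or 12.6%. The members' lack of an ES1 or ES3 peak is therefore the rule and not a result, and no test was made on it. Each member was a single ES2 peak, so the set held 18.4% of the 21202 ES2 peaks on these chromosomes.

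The study profiled mouse cells with a droplet method in which the chromatin of each cell is cut by MNase and tagged with a DNA barcode inside a droplet, before many cells are pooled for immunoprecipitation. Its 123 libraries used an antibody to H3K4me2 (86 libraries) or H3K4me3 (37 libraries), on embryonic stem cells of the V6.5 strain, on embryonic fibroblasts and on EML cells, a blood progenitor line. ES1, ES2 and ES3 are 3 lists of the whole series, read here as sets of stem cells, with 1 list per name and no replicate. The labels tie no list to a library, a mark, an antibody or a number of cells. The stem cells were grown in serum with LIF, and the labels name no gene alteration or drug treatment for them. If cells were sorted into the sets by the same profiles from which peaks were called, that sorting and the differences between the lists cannot be told apart.

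H3K4 methylation is laid down by the MLL and SET1 families of enzymes. The trimethyl form sits at the starts of active genes and of many genes held poised in stem cells. The dimethyl form extends further, to the flanks of promoters and to enhancers. A promoter-centred domain is often accompanied by smaller marked sites nearby, and enhancers can lie far from any promoter. Where a member lies relative to regions called in several lists was not used by the rule, apart from the fact that it cannot touch one, and is the main subject here. No gene annotation or sequence of the mm9 build was used, so the members are given by position only, and whether they lie over promoters, enhancers or repeats was not analysed.

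Like the ES1-only and ES3-only regions, the ES2-only regions were narrow and rested on few reads. Their median width was 1032 bp, with quartiles of 594.8 and 1638 bp, and 694 of them (17.8%) were 500 or 501 bp wide, the narrowest that any list contains. The widest spanned 6212 bp. Reads could be recovered for the inner interval that the authors give with each peak, which was the whole peak in 74.9% of members. The median member held 13 reads there, with quartiles of 11 and 16 and a range of 8 to 53. Only 350 members (8.98%) had 20 reads or more, and 34 (0.873%) had 30 or more. Regions called only in ES1 had medians of 1176.5 bp and 13 reads, and those called only in ES3 of 940 bp and 12 reads.

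Among ES2 peaks, those called in ES2 alone had the fewest reads and the shortest inner intervals. The median was 13 reads over 857.5 bp in ES2-only peaks, 14 reads over 923 bp in ES2 peaks of regions shared with ES3 alone, 15 reads over 1157 bp where ES1 alone shared the region, and 19 reads over 1470 bp in regions of all 3 lists. Read density did not follow that order. It was 14.8 reads per kb of inner interval in ES2-only peaks, against 15.0, 13.7 and 13.4 in the other classes in the same order. ES1-only peaks had a median of 14.5 and ES3-only peaks of 14.7 reads per kb. These values are the ones from which the peaks were called and serve as a description.

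The share of ES2 peaks that no other list called was smaller where a peak held more reads. It was 31.8% among ES2 peaks with 9 reads or fewer, 30.2% with 10 to 12, 24.0% with 13 to 15, 17.4% with 16 to 19, 7.75% with 20 to 29 and 1.58% with 30 to 49. Of the 810 ES2 peaks with 50 reads or more, 1 was a member. The same decline was seen in the other lists at other levels. With 10 to 12 reads, 46.5% of ES1 peaks and 11.5% of ES3 peaks lay in their own list alone.

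**Figure D1:**
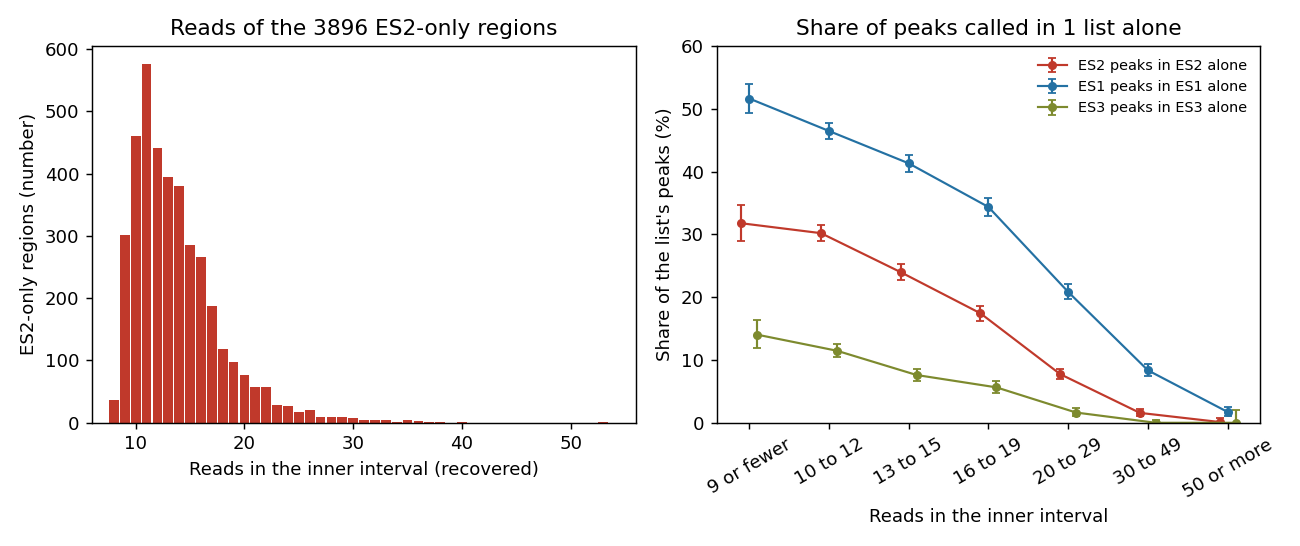
Left, number of ES2-only regions by recovered reads in the inner interval. Right, share of each list's peaks that were called in that list alone, by reads, with exact binomial 95% intervals. For ES2 the share goes from 31.8% at 9 reads or fewer to 1 of 810 peaks at 50 or more.

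Sequencing depth bears on which regions can be called. The depth of each list was inferred from the score, on the assumption that its step on a chromosome is the inverse of the reads there. On that reading ES2 had 1.04 to 1.16 times the reads of ES1 on each chromosome and 1.07 to 1.16 times those of ES3. The lists held 25878 ES1, 21202 ES2 and 12239 ES3 peaks on these chromosomes. ES1 thus held more peaks than ES2 at a lower inferred depth. When a member's reads were scaled down to the depth of ES1, 414 members (10.6%) fell below the fewest reads behind any ES1 peak of that chromosome. Scaled to ES3, 378 members (9.70%) did, and 618 (15.9%) fell below in at least 1 of the lists. The other 3278 members reached the fewest reads of any peak of their chromosome in both lists, on the assumption of equal density in those cells. This limit takes no account of a member's width or of counting error. Passing it does not show that ES1 or ES3 could have called the member. The level of ES1 and ES3 at the members is not given by a peak list, so a member is not shown to be unmarked there. The part of depth in the members' calls was not tested beyond this scaling.

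ES2-only regions, like ES1-only and ES3-only regions, most often lay at a middle distance from shared regions. A shared region here is a union region with peaks of at least 2 lists, of which there were 17759. A member was called a satellite within 5 kb of one, edge to edge, and isolated beyond 50 kb. By this measure 926 members (23.8%, 95% interval 22.4 to 25.1) were satellites, 2033 (52.2%, 50.6 to 53.8) lay between, and 937 (24.1%, 22.7 to 25.4) were isolated. The middle class fell below 50% under other choices, with 43.4% when a shared region had to be in all 3 lists and 49.3% with lists of equal length. With the peaks of each list above its median score it was 44.7%, fewer than the 46.8% isolated. The score follows read density, so this cut does not keep the peaks with the most reads. Its median was 13.72 in ES2-only peaks and 12.25 in ES2 peaks of regions in all 3 lists. The median distance was 15588 bp, with quartiles of 5320 and 47363.2 bp, and the range ran from 25 bp to 4513236 bp.

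Members were denser close to shared regions than far from them. Of the bases outside shared regions, 6.37% lay within 5 kb of one, 23.6% at 5 to 50 kb and 70.0% further away. The members numbered 6.22 per Mb of bases in the nearest band, 3.68 per Mb in the middle band and 0.572 per Mb beyond 50 kb. Within 1 kb the share of members was nearer to that of the bases. There lay 77 members (1.98%, 1.56 to 2.46) and 1.50% of the bases. A further 202 lay at 1 to 2 kb and 647 at 2 to 5 kb. Peaks of a single list seldom came closer to each other: 0.278% of the gaps between neighbouring ES2 peaks were 1 kb or less and 3.68% were 2 kb or less.

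The placing of members relative to shared regions was close to that of the other one-list sets. Satellites made up 23.8% of the ES2-only regions, 23.4% (22.5 to 24.3) of the 8416 ES1-only regions and 24.5% (21.7 to 27.4) of the 903 ES3-only regions. Over all regions of 1 list the share was 23.6%. Regions at 5 to 50 kb made up 52.2% of ES2-only, 53.2% (52.1 to 54.2) of ES1-only and 51.9% (48.6 to 55.2) of ES3-only regions. Isolated regions made up 24.1% of ES2-only, 23.4% (22.5 to 24.3) of ES1-only and 23.6% (20.8 to 26.5) of ES3-only regions, again 23.6% over all regions of 1 list. The medians, 15588 bp for ES2-only regions, 15333.5 bp for ES1-only regions and 15689 bp for ES3-only regions, had overlapping intervals, with that of ES2-only regions running from 14498 to 16585 bp. With 1 list per name there is no replicate, and no difference between the sets was tested. Within 1 kb the shares stood further apart, at 1.98% (1.56 to 2.46) of ES2-only, 1.11% (0.893 to 1.35) of ES1-only and 3.43% (2.34 to 4.84) of ES3-only regions. Gaps of 1 kb or less were rare within each list, at 0.309% for ES1, 0.278% for ES2 and 0.262% for ES3. Such spacing limits the shares within 1 kb, and its part in them was not tested.

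**Figure D2:**
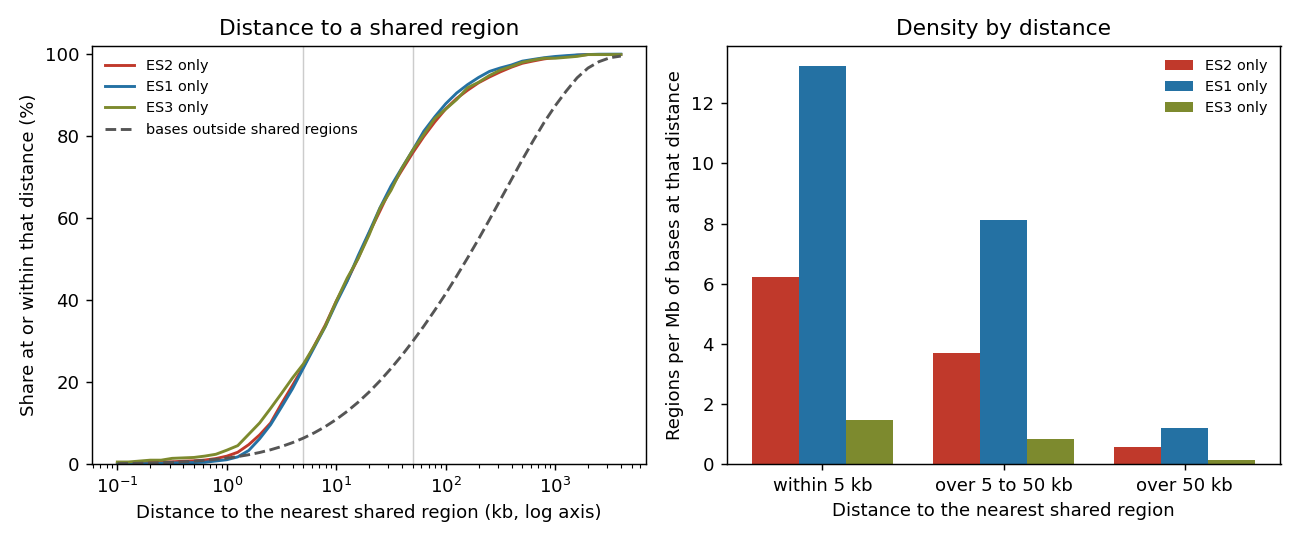
Left, share of ES2-only, ES1-only and ES3-only regions, and of the bases outside shared regions, at or within a given distance of the nearest shared region (kb, log axis), with grey lines at 5 and 50 kb. Right, regions per Mb of bases in 3 bands of distance. The curves of the one-list sets nearly coincide above 5 kb and lie above that of the bases, and ES2-only regions number 6.22, 3.68 and 0.572 per Mb from the nearest band to the farthest.

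Few shared regions had more than 1 satellite. No expected number was computed for this, and only 3.68% of gaps between neighbouring ES2 peaks were 2 kb or less. The 926 satellites belonged to 913 shared regions, 5.14% of all shared regions. A single satellite was found at 900 of them and 2 at the other 13, on both sides of the shared region in 11 cases. By the order of chromosome and position the first of these was a wide region on chr1:154736344-154752705, which ES1 and ES2 shared with 17 and 85 reads. Its satellites at chr1:154730335-154732130 and chr1:154733580-154735351 held 14 and 15 reads and lay on one side, 4213 and 992 bp away. The region of all 3 lists on chr2:91488008-91490920 had satellites on both sides, of 11 and 13 reads, at 3173 and 4992 bp. So did a region of ES1 and ES2 on chr4:154896165-154898730, with satellites of 11 and 16 reads at 2790 and 161 bp.

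The shared regions next to satellites were wider than shared regions at large. The nearest shared region of a satellite had a median width of 3097 bp, and 24.6% of them spanned 5 kb or more, against a median of 2557 bp and 18.5% over all shared regions. For members within 1 kb the median was 3877 bp and 37.7% spanned 5 kb or more. For isolated members the nearest shared region had a median of 2165 bp, and 6.83% spanned 5 kb or more.

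Most satellites flanked a region that ES2 also called, and most shared regions were of that kind. The nearest shared region was one of all 3 lists for 48.7% of satellites and one of ES1 and ES2 for 39.0%. Over all shared regions these classes made up 46.2% and 41.6%. It was a region of ES1 and ES3, hence without an ES2 peak, for 10.2% of satellites, 10.0% of all members and 8.67% of shared regions overall. Among members within 1 kb this share was higher, with 16 of 77 (20.8%, 12.4 to 31.5), against 15 of 202 (7.43%, 4.22 to 11.9) at 1 to 2 kb. ES2 peaks seldom lay within 1 kb of each other (0.278% of gaps), which limits how many members can lie that near an ES2 peak. The part of this spacing in the share was not tested. ES1-only regions gave 12 of 93 (12.9%, 6.85 to 21.4) within 1 kb of a region that lacked ES1, against 15 of 439 (3.42%, 1.93 to 5.57) at 1 to 2 kb. ES3-only regions gave 15 of 31 (48.4%, 30.2 to 66.9) within 1 kb of a region that lacked ES3, against 23 of 61 (37.7%) at 1 to 2 kb and 41.6% of all shared regions, so no clear excess was seen there.

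The 5 members closest to a shared region all adjoined a region called in ES1 and ES3. Neighbouring ES2 peaks were never closer than 226 bp, so none of these members could adjoin an ES2 peak at its distance. The closest, chr19:5067077-5067576 with 9 reads, ended 25 bp before a region with 13 reads in ES1 and 14 in ES3. Next were chr10:117120688-117122720 with 13 reads at 38 bp, chr3:58217589-58218089 with 14 reads at 46 bp, and chr5:110771302-110771801 with 9 reads at 50 bp. The fifth, chr7:71064857-71069169, was among the members with the most reads. It held 36 reads (25.2 to 49.8) over 4313 bp and lay 76 bp from a region of 2344 bp with 17 reads in ES1 and 16 in ES3. At these places each list had a peak, but the ES2 peak did not touch the others, so the rule counted it as ES2-only.

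The rule turns on contact with any ES1 or ES3 peak, in shared regions or not. The members just inside it had gaps of 5, 7, 11, 17 and 22 bp to such a peak, and 26 members had a gap of at most 100 bp. Just outside it were ES2 peaks that overlapped an ES1 or ES3 peak by 1, 2, 2, 4 and 4 bp, and 88 ES2 peaks overlapped by at most 100 bp. Within 1 kb of a member lay an ES1 or ES3 peak in 188 cases (4.83%). Of these 188 members, 100 had a region of ES1 alone as the nearest and 12 one of ES3 alone. The nearest peak of ES1 or ES3 was a median of 8968 bp away.

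Wider members lay closer to shared regions. The median width was 1206 bp (1094 to 1279) in satellites, 1021 bp (987 to 1078) in members between and 924 bp (873 to 967) in isolated members. Members of 500 or 501 bp made up 13.6%, 18.4% and 20.7% of these classes, and members of 2 kb or more 14.7%, 11.2% and 8.00%. Read density went the other way, with medians of 13.7, 14.9 and 16.1 reads per kb. No member held fewer than 8 reads, so members with a short inner interval cannot have a low density. The part of this floor in the density values was not tested. Reads themselves differed little, with medians of 13, 13 and 12, although 20 reads or more were found in 11.4% of satellites, 8.71% of members between and 7.15% of isolated members. Across the 3896 members, distance and width had Spearman's rho = -0.12, distance and reads -0.08, and distance and density 0.11. All are weak. Isolated members were also somewhat more often below the fewest reads of any ES1 peak after scaling, 12.4% (10.3 to 14.7) against 9.40% (7.59 to 11.5) of satellites.

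**Figure D3:**
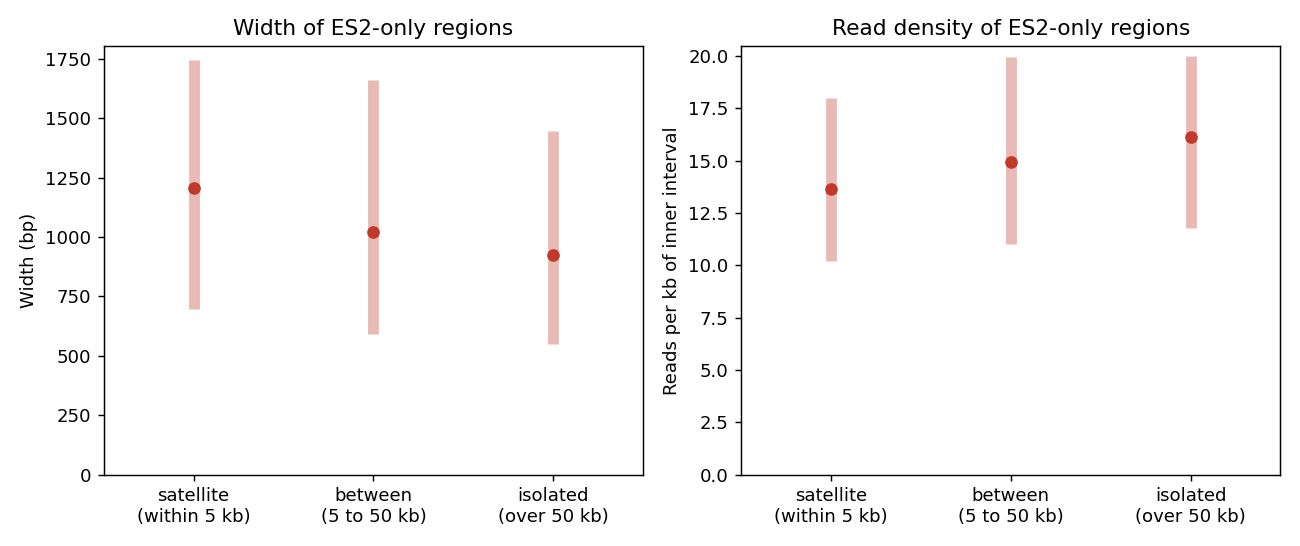
Width in bp (left) and reads per kb of the inner interval (right) of ES2-only regions by distance to the nearest shared region; points are medians and bars run from the lower to the upper quartile. The median width is 1206 bp in satellites and 924 bp in isolated members, while the median density is 13.7 and 16.1 reads per kb.

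The 10 members with the most reads held 35 to 53 reads, each over an inner interval that was the whole peak, and 3226 to 4580 bp wide. The first, chr11:115363209-115367697, had 53 reads (39.7 to 69.3), or 50.8 when scaled to the depth of ES1 on that chromosome and 45.6 when scaled to ES3. It lay 2635 bp before a region that ES1 and ES3 called with 25 and 11 reads and ES2 did not. The same arrangement was found at chr9:99769115-99772597, with 36 reads (25.2 to 49.8), which lay 2648 bp before a region with 24 reads in ES1 and 14 in ES3. With the chromosome 7 member above, 3 of these 10 members had as their nearest shared region one that lacked an ES2 peak.

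Other members with many reads lay further out. The second, chr11:6064035-6068096, held 40 reads (28.6 to 54.5), 8859 bp from a region of all 3 lists and 6.63 kb from an ES1-only region. The third, chr15:7759487-7764066, held 38 reads (26.9 to 52.2) and was isolated, 411 kb from the nearest shared region and 273 kb from any other union region. Another isolated member, chr2:135384693-135388492, held 35 reads (24.4 to 48.7) at 92.9 kb from a shared region. A member on chr11:48666354-48669579 with 37 reads was 13.3 kb from a shared region but 1.50 kb from an ES3-only region. The remaining 3 members of the 10 were a satellite on chromosome 4 and members between 8.96 and 47.8 kb from a region of all 3 lists on chromosomes 18 and 14.

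The widest members were not those with the most reads. The widest, chr1:59977991-59984202, spanned 6212 bp, but its inner interval of 1417 bp held 13 reads (6.92 to 22.2), and it was isolated at 156 kb. The next, chr4:82071999-82078204, had 12 reads (6.20 to 21.0) in an inner interval of 501 bp out of 6206 bp and was a satellite at 3070 bp. The other 3, on chromosomes 16, 18 and 10, spanned 5185 to 5610 bp and held 14 to 21 reads. Reads outside the inner interval are unknown.

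The most remote members lay in stretches with few regions of any kind. On chromosome 14 a peak of 501 bp, chr14:92054973-92055473, with 10 reads (4.80 to 18.4), lay 4513 kb from the nearest shared region, and chr14:94290038-94290868, with 14 reads (7.65 to 23.5), lay 4276 kb from one. These members were each other's nearest union region, 2235 kb apart. Next came chr15:21040693-21041240 with 10 reads at 4219 kb, chr1:103652958-103654726, a wider peak of 1769 bp, with 10 reads at 3010 kb and chr12:64128750-64129306 with 11 reads at 1937 kb. All but 1 of the 5 had fewer reads than the median member. Of the 937 isolated members, 504 (53.8%, 50.5 to 57.0) had no other union region of any kind within 50 kb, and 85 (9.07%) had an ES1-only or ES3-only region within 5 kb.

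The clusters that ES2-only regions formed were mostly pairs. No expected number of clusters was computed, so whether they are few or many for this number of members was not tested. With neighbours joined across gaps of at most 10 kb, 308 members (7.91%, 7.08 to 8.80) lay in 152 clusters, of which 148 were pairs and 4 held 3 members. At 5 kb there were 73 pairs and nothing larger, at 25 kb 19.1% of members were clustered with at most 4 together, and at 50 kb 32.6% with at most 6. Most of the 156 gaps inside the 10 kb clusters were empty: 129 (82.7%) held no region of another list, 14 a region of 1 other list and 13 a shared region. Clustering was less common among isolated members, with 3.84% (2.71 to 5.28), than among satellites, with 8.96% (7.20 to 11.0), or members between, with 9.30% (8.07 to 10.6). Members were also sparser beyond 50 kb, at 0.572 per Mb against 6.22 within 5 kb and 3.68 between, which by itself makes close neighbours fewer. These shares are not relative to local density, and its part in them was not tested.

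Of the 4 clusters of 3 members, 3 lay on chromosome 8. The cluster at chr8:87945477-87967301 had a shared region of ES1 and ES2 inside it, and its members held 14, 16 and 15 reads at 3304, 997 and 12021 bp from that region. The cluster at chr8:119141587-119152702 was the most compact, with 10, 9 and 10 reads within 11116 bp and no other region inside. The one at chr8:129452264-129468298 held 16, 17 and 13 reads over 16035 bp, with 1 region of another list inside. The cluster on chr1:155328786-155348962 held 12, 17 and 14 reads over 20177 bp, with nothing else inside and the nearest shared region 29573 bp away.

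The sets also differed in the share in clusters, as they did in size. It was 7.91% for the 3896 ES2-only regions, 20.6% for the 8416 ES1-only regions and 1.33% for the 903 ES3-only regions. ES3 holds 12391 peaks in all, so it stayed whole when ES1 and ES2 were shortened to that number. When they kept their peaks with the most reads, the sets came closer in size. Then 9.65% of 3346 ES2-only, 11.1% of 3683 ES1-only and 9.10% of 3220 ES3-only regions lay in clusters. When they kept their highest scores instead, the shares were 10.9% of 4393 ES2-only, 11.4% of 5020 ES1-only and 25.4% of 4823 ES3-only regions. The order of the sets thus depends on how ES1 and ES2 are shortened, with ES3 uncut in both settings. The gap between neighbouring members had a median of 213 kb and a mean of 608 kb. The median was 0.350 of the mean, against 0.289 for ES1-only and 0.467 for ES3-only regions. The standard deviation of the gaps was 1.83 times their mean, against 2.48 for ES1-only and 1.49 for ES3-only regions. The gaps were thus uneven in all sets, and no expected values for random placing were computed.

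Seen between neighbouring shared regions, members were mostly alone. Of 17740 such intervals, 2587 held 1 member, 458 held 2 and 122 held 3 or more, with a maximum of 6 in an interval of 3146 kb. Intervals with a member were longer, with a median of 76.2 kb, than those without, with 17.3 kb. An ES1-only region was found in 53.2% of the intervals with a member and in 26.2% of those without. This held within classes of length: 18.5% (15.3 to 22.2) with a member and 11.0% (10.3 to 11.7) without in intervals of up to 20 kb, and 72.8% (69.7 to 75.8) and 54.7% (51.9 to 57.5) in intervals over 200 kb. Length still varies inside each class.

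Regional density of members followed that of shared regions. In bins of 1 Mb the members averaged 1.61, with a variance 2.46 times the mean, and 974 of 2416 bins held none. Across these bins the number of members and of shared regions had Pearson's r = 0.73 and Spearman's rho = 0.75, against 0.81 and 0.85 for ES1-only regions. Neighbouring bins are not independent, and both counts share the same mappable sequence and the same ES2 list, so this is a description. The mean per bin was 0.183 members with no shared region, 0.684 with 1 to 3, 1.54 with 4 to 7, 2.39 with 8 to 12, 3.09 with 13 to 20 and 4.82 with 21 or more.

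The share of members among one-list regions was highest in bins without any shared region, which held few of them. Over all bins, members were 3896 of 13215 one-list regions. In bins without a shared region members made up 111 of 311 one-list regions (35.7%, 30.4 to 41.3), against 31.3% (28.7 to 33.9) in bins with 1 to 3 shared regions and 28.7% to 29.6% in the denser bins. The first interval overlapped that of bins with 1 to 3 shared regions and, narrowly, that of bins with 21 or more (28.2 to 31.0). ES2 was also the list with the most reads by the inferred depth. The part of depth in this difference was not tested.

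**Figure D4:**
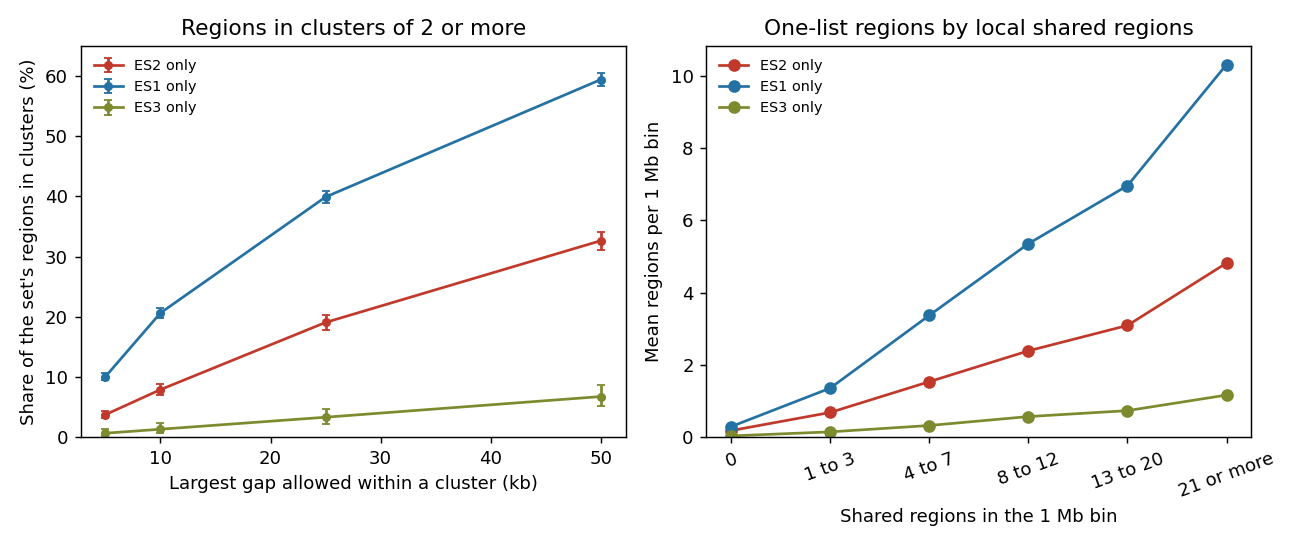
Left, share of ES2-only, ES1-only and ES3-only regions that lie in clusters of 2 or more, by the largest gap allowed (kb), with exact binomial 95% intervals. Right, mean number of regions of each set per 1 Mb bin, by the number of shared regions in the bin. ES2-only clustering rises from 3.75% at 5 kb to 32.6% at 50 kb, and the mean number per bin from 0.183 to 4.82.

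The fullest bins held 11 members and many shared regions. They were at 119 to 120 Mb of chromosome 8, with 26 shared and 5 ES1-only regions, 44 to 45 Mb of chromosome 9, with 26 and 15, and 112 to 113 Mb of chromosome 12, with 30 and 13. A further bin, at 36 to 37 Mb of chromosome 15, also held 11. In these bins 5, 4, 2 and 0 of the 11 members lay in 10 kb clusters, against 7.91% of all members. The bins were chosen for holding the most members, which by itself makes close neighbours more likely. Satellites numbered 3, 4, 5 and 2, and the reads per member ranged from 9 to 31.

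By chromosome, the share of union regions that were members ranged from 11.2% (9.30 to 13.3) on chromosome 19 to 14.4% (12.5 to 16.4) on chromosome 12, around the 12.6% of all. Members per Mb ranged from 1.25 on chromosome 3 to 2.09 on chromosome 11. The share of satellites was lowest on chromosome 3, at 16.1% (11.2 to 22.1), and highest on chromosome 15, at 28.9% (22.5 to 35.9). Isolated members were most common on chromosome 1, at 34.5% (28.7 to 40.8), and chromosome 13, at 34.3% (27.3 to 41.8), and least common on chromosome 16, at 15.0% (9.62 to 21.8). Shared regions numbered 5.47, 6.25 and 6.82 per Mb on these chromosomes, in that order. Chromosome 18, with 6.80 shared regions per Mb, had 29.1% (21.4 to 37.9) of its members isolated.

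**Figure D5:**
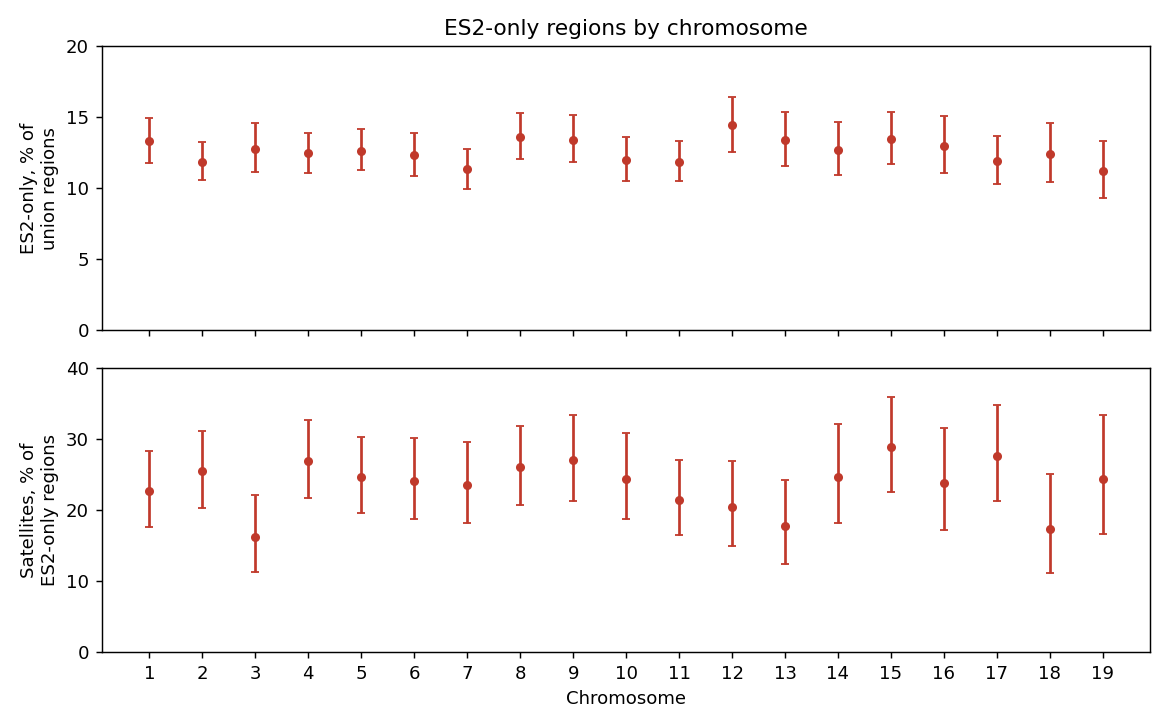
Top, ES2-only regions as a share of the union regions of each chromosome. Bottom, satellites as a share of the ES2-only regions of each chromosome; bars are exact binomial 95% intervals. The share of members lies between 11.2% and 14.4% and the share of satellites between 16.1% and 28.9%.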

How the data were processed

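The series holds 123 libraries in 8 groups, and the values came from its 3 peak lists. Reads were aligned with Bowtie to mm9, per the submitters' processing notes. No source used here names the peak caller. The lists hold peak coordinates, an inner interval and a score with no stated unit, as deposited by the authors.

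The score times the inner length came out, in 100% of peaks, as a whole multiple of a step that is fixed for a chromosome of a list (tolerance 0.001). The multiple was taken as reads and the step as the inverse of a list's reads on that chromosome, from which depth was inferred; both are assumptions. Starts are printed 1-based.

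Union regions, distances, clusters and 1 Mb bins were computed with Python 3.11.15, pandas 2.3.3 and scipy 1.17.1. The code was checked on simulated lists. Shares have exact (Clopper-Pearson) and reads exact Poisson 95% intervals, for counting error only. Named regions are the 10 members with most reads, the 5 widest, closest and farthest, the first 5 clusters by size, and the first 3 shared regions and bins by count, ties by position. The fifth cluster, a pair on chromosome 1 with 12 and 22 reads, is not described further. Members and measures were chosen with earlier results of these data known. Annotation and gene lists were not used, for want of an mm9 annotation here.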

Additional observations from a re-analysis of the deposited data

How the results depend on the processing

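The number of ES2-only regions stayed within 1.5 times 3896 under all 8 alternatives, from 3278 to 4582, but the identity of the members did not: of the 3346 regions with lists of equal length by reads, 1343 (40.1%) were members. Shares and distances depend on the limits chosen. Settings by score keep peaks of high read density, which need not be those with the most reads. Satellites were 1.98% within 1 kb, 7.16% within 2 kb and 39.8% within 10 kb. They were 12.4% with shared regions of all 3 lists, 21.6% with shared regions that hold ES2, 11.0% by centres, 8.56% with the peaks of each list above its median score, 11.3% and 18.4% with lists of equal length by score and by reads, 26.4% for members above the median reads, and 22.1% without members that have an ES1 or ES3 peak within 1 kb. Members at 5 to 50 kb were 43.4% with shared regions of all 3 lists, 44.7% with peaks above the median score and 49.3% with equal lengths by score or by reads. Isolated members were 46.8% with peaks above the median score, 38.2% beyond 25 kb, 13.3% beyond 100 kb, 44.2% with shared regions of all 3 lists, and 39.4% and 32.3% with equal lengths by score and by reads. Clustered members were 3.75%, 19.1% and 32.6% at 5, 25 and 50 kb, 6.57% with clusters broken by other regions, and 10.9% and 9.65% with equal lengths by score and by reads. The median distance was 38427 bp to regions of all 3 lists, 17744 bp by centres and 32386 bp with equal lengths by score. Without satellites the median width was 991 bp. The closeness of the satellite share between ES2-only and ES3-only regions did not hold with equal lengths by score, which gave 11.3% and 13.6%, with 39.4% and 31.7% isolated. Chosen after seeing the data were equal lengths by reads for the shares, the exclusion by scaled reads, the 1 kb exclusion for the satellite share, peaks above the median score for isolated members, and all alternatives for members at 5 to 50 kb. No paired analysis was possible because the lists carry no replicate numbers. Depth limits the calls: the fewest reads behind an ES2 peak were 8 to 10 by chromosome.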
